A study of Drosophila melanogaster with 2 samples.

Results

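The genes described here encode parts of the transcription machinery of Drosophila melanogaster, with some paralogs of these. They cover subunits of the Mediator complex, TBP-associated factors (TAFs) of the general factor TFIID, and subunits of the RNA polymerases. The general factors TFIIA, TFIIB, TFIIE and TFIIF and the elongation factor TFIIS complete the set. Members were the protein-coding genes whose symbol begins MED, Taf or Polr, each followed by a digit or capital letter, or begins TfII. The Ensembl annotation gave 80 of them among 13945 protein-coding genes on the chromosome arms: 25 Mediator, 15 TAF, 31 polymerase and 9 TfII genes. Binding of the small Maf protein maf-S was mapped by chromatin immunoprecipitation and sequencing (ChIP-seq) with an antibody against GFP, in flies of a transgenic line that stably carries maf-S with GFP (eGFP in the labels) at its C-terminus. The antibody is anti-GFP in the description of the samples, while their antibody label reads maf-S. There was 1 group, made of biological replicates 2 and 3, each of mixed-sex embryos collected 0 to 24 hours after laying, and no other condition. Whole embryos mix all cell types and stages, so a peak cannot be placed in a cell type, and the labels do not state which promoter drives the tagged gene. The sources used here give no sequencing depth, and data of the control experiment named in the labels were not analysed here.

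RNA polymerase II makes messenger RNA, polymerase I makes the large ribosomal RNA precursor, and polymerase III makes transfer RNA and 5S ribosomal RNA. Some subunits are common to all of these enzymes. At a polymerase II promoter TFIID recognises core promoter DNA, TFIIA and TFIIB join it, and TFIIF brings in the polymerase. Mediator, built of a head, a middle and a tail around the MED14 backbone, links sequence-specific activators to the polymerase. Small Maf proteins are basic leucine zipper factors without an activation domain; they reach DNA as dimers, and Cap'n'collar is their fly partner.

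maf-S-eGFP lay at the promoters of 22 of the 80 genes, with the strongest peaks at MED30, Polr2H, MED15, Polr2F and MED27. A gene was called bound where the summit of a peak that passed the authors' reproducibility threshold lay within 1 kb of any of its annotated start sites. The bound genes were 27.5% of the members (exact binomial 95% interval 18.1 to 38.6), against 19.4% of all protein-coding genes (2707 of 13945) and 19.4% of the 13865 protein-coding genes that are not members. The background share lay inside the interval of the members, so a higher share at these genes was not detectable with 80 genes. The intervals cover counting error over genes only. Bound members fell on 22 distinct peaks, so no member was counted through the peak of another. At 17 of these peaks (77.3%, against 66.8% over all bound genes) another gene also had a start site within 1 kb of the summit. The member had the nearest start at 12 (54.5% against 67.2%). A shared peak cannot be assigned to either gene from these lists.

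The DNA under the strongest of these peaks is printed below for MED30, Polr2H, MED15, Polr2F and MED27, a choice of the 5 highest signals made after the values were seen, and for TfIIA-S, whose summit lies on a match to the relaxed Cnc-Maf sequence TGACNNNGC. Each stretch reaches at most 100 bases either side of the summit and stops where an annotated exon begins. Bases are from Drosophila Release 6 (dm6) in RefSeq, 5′ to 3′ on the strand of the gene, and capitals mark words of the motif panel described further on. The coordinates are chr3L:654206-654362 (minus strand) for MED30, chr3L:21728807-21728929 (plus) for Polr2H, chr2L:472373-472573 (plus) for MED15, chr3R:5371745-5371794 (plus) for Polr2F, chr3R:5654876-5655076 (plus) for MED27 and chr3R:23891061-23891255 (minus) for TfIIA-S.
MED30: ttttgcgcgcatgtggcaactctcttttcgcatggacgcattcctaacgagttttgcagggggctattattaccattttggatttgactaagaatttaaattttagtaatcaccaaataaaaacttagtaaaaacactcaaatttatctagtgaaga
Polr2H: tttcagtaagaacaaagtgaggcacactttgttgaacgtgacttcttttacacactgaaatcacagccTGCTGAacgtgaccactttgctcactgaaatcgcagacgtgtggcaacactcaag
MED15: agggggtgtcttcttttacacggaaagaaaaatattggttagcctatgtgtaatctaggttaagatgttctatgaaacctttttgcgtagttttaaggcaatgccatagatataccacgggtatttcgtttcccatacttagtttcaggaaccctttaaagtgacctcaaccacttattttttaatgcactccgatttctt
Polr2F: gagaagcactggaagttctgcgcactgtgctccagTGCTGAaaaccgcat
MED27: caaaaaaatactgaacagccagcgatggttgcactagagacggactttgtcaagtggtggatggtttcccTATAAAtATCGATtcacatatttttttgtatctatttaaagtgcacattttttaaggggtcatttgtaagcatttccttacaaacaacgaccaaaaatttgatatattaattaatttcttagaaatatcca
TfIIA-S: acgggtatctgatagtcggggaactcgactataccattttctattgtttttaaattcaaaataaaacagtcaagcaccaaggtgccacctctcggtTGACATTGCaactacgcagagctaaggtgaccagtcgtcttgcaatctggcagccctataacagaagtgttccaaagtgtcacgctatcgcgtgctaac
The capitals are TGCTGA, a word found in Maf recognition elements, in Polr2H and Polr2F, the TATA word TATAAA and the core of the DRE promoter element, ATCGAT, in MED27, and TGACATTGC in TfIIA-S. MED30 and MED15 have no capitals because no word of the panel occurs in the printed stretch.

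**Figure D1:**
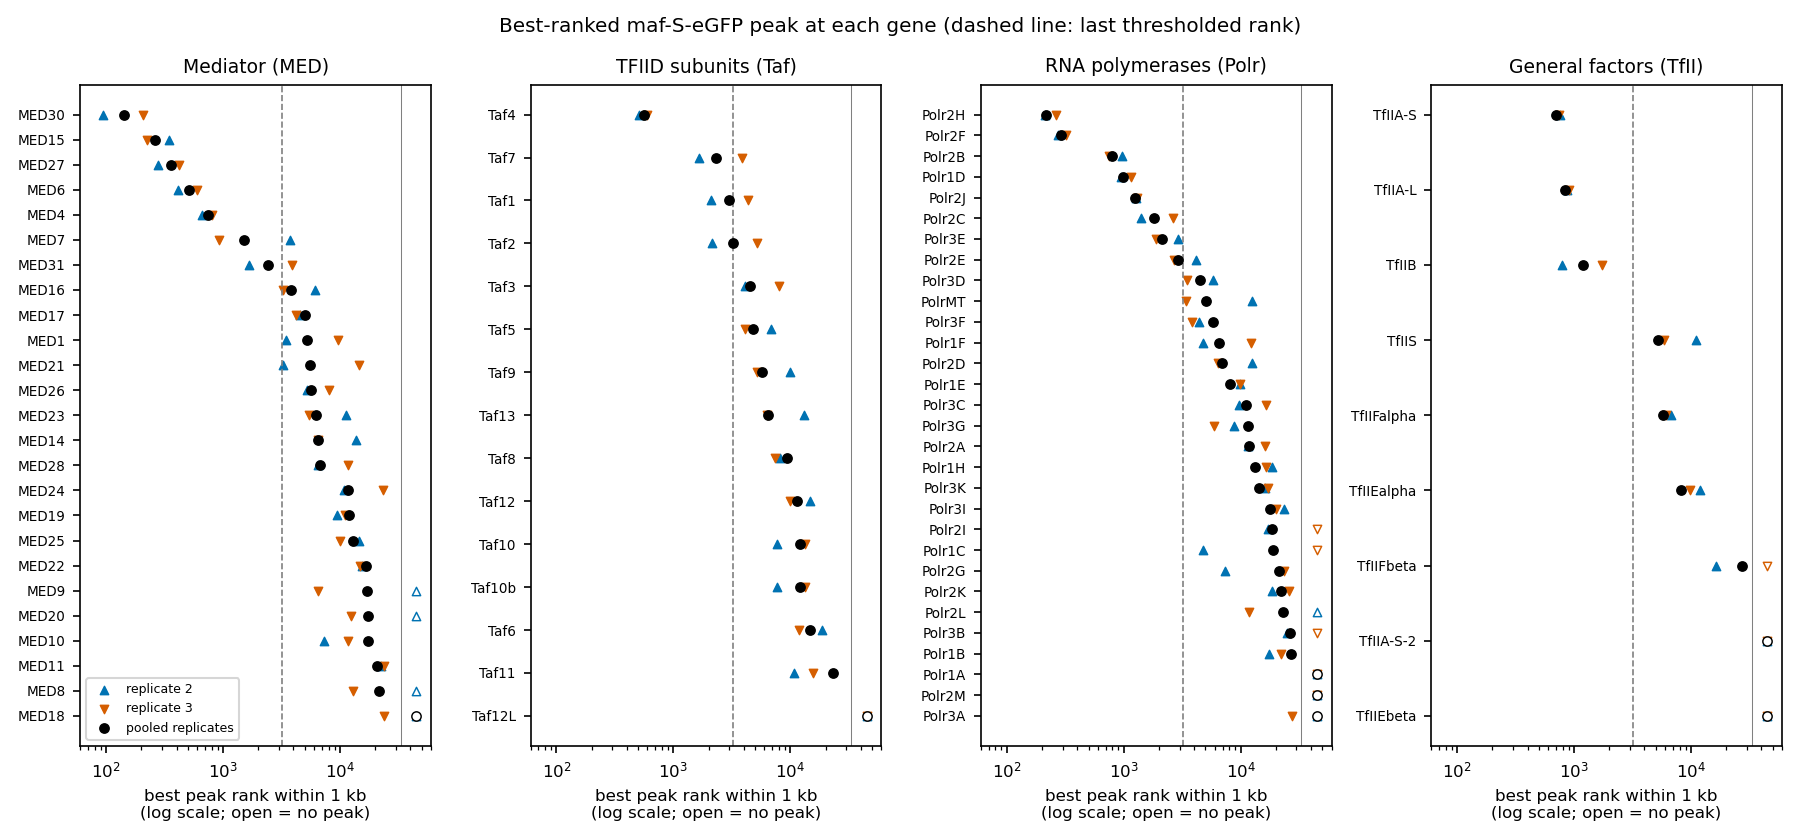
Best rank of a maf-S-eGFP peak within 1 kb of any start site of 79 of the 80 genes, in the list of replicate 2 (upward triangles), replicate 3 (downward triangles) and the pooled replicates (circles), on a log scale where 1 is the strongest peak. The dashed line is the last thresholded rank, 3205; open symbols right of the solid line have no peak within 1 kb, and 21 filled circles lie left of the dashed line.

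The strongest peak of the set was at a Mediator gene. Of the 25 Mediator genes, 7 were bound (28%, 12.1 to 49.4), an interval that holds the background of 19.4%. The values that follow are the authors' signal per peak and the rank of that signal, where rank 1 is the strongest of the 3205 thresholded peaks, whose lowest signal was 72.27 and median 109.5. MED30, a head subunit, had a signal of 357.2 (rank 141) at chr3L:654185-654413, and the peak of the same place had a signal of 181.2 (rank 94) in replicate 2 and 175.7 (rank 205) in replicate 3. MED15, a tail subunit that contacts activators, had 270.7 (rank 262) at chr2L:472392-472547, with rank 347 in replicate 2 and rank 223 in replicate 3. MED27, also of the tail, had 238.8 (rank 360) at chr3R:5654939-5655095, with rank 280 in replicate 2 and rank 418 in replicate 3. These 3 peaks were among the 500 strongest of the list in pooled data and in each replicate alone.

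MED6, a head subunit with 5 annotated start sites, had a signal of 201.3 (rank 516) at a start inside the gene, where the summit lay in its annotated 5′ UTR. Its ranks were 412 in replicate 2 and 599 in replicate 3. MED4, of the middle module, had 164.8 (rank 749), with rank 658 in replicate 2 and 809 in replicate 3. The 2 other bound Mediator genes belong to the middle module as well and differed more between replicates. MED7 had 113.3 (rank 1509), from a signal of 30.24 (rank 3755) in replicate 2 and 86.46 (rank 919) in replicate 3. MED31 had 85.38 (rank 2439), from 47.69 (rank 1660) in replicate 2 and 37.06 (rank 3862) in replicate 3. By module, 2 of 9 head, 3 of 8 middle and 2 of 7 tail genes were bound, and the backbone gene MED14 was not. Such small counts set the modules apart neither from each other nor from the background of 19.4%.

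Of the polymerase genes, 9 of 31 were bound (29%, 14.2 to 48.0), an interval that holds the background of 19.4%. The strongest of their peaks were at subunits that polymerases I, II and III have in common. Polr2H had a signal of 290.4 (rank 215) at chr3L:21728763-21728860, with 127.1 (rank 212) in replicate 2 and 157.6 (rank 261) in replicate 3. Polr2F had 260.2 (rank 292) at chr3R:5371630-5371822, with 113.9 (rank 272) in replicate 2 and 147.4 (rank 319) in replicate 3. Polr2E, the third bound gene of the common subunits, was far lower at 76.73 (rank 2908), with rank 4136 in replicate 2 and rank 2681 in replicate 3. The other common subunits, Polr2K and Polr2L, were unbound, with best pooled ranks of 22199 and 23195, so the 5 common-subunit genes spread over almost the whole pooled list of 30000 peaks.

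Among the subunits of polymerase II alone, Polr2B, its second largest subunit, had a signal of 160.4 (rank 798), with rank 963 in replicate 2 and 747 in replicate 3. Polr2J and Polr2C encode the pair of small subunits around which the enzyme assembles. Polr2J had 126.7 (rank 1252), with rank 1264 in replicate 2 and rank 1303 in replicate 3, and Polr2C had 101.2 (rank 1823), with rank 1413 in replicate 2 and rank 2643 in replicate 3. Polr2A, which encodes the largest subunit and carries the repeated C-terminal domain, was unbound, with a best pooled rank of 11816 and ranks of 11523 in replicate 2 and 16248 in replicate 3. In all, 6 of the 13 genes named Polr2 were bound (46.2%, 19.2 to 74.9), against 1 of 7 named Polr1, 2 of 10 named Polr3 and not the mitochondrial PolrMT. The interval of the Polr2 genes overlapped that of each of those groups and held the background of 19.4% only at its lower end.

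Polr1D, a subunit shared by polymerases I and III, had a signal of 143.4 (rank 988), with rank 947 in replicate 2 and 1156 in replicate 3. Polr3E, a polymerase III subunit, was weaker at 92.53 (rank 2127), with rank 2909 in replicate 2 and rank 1893 in replicate 3. The large catalytic subunits Polr1A and Polr3A had no pooled peak within 1 kb, and Polr1B and Polr3B, the second largest subunits, ranked 26780 and 26550.

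TfII genes had 3 of 9 bound (33.3%, 7.49 to 70.1), an interval that holds the background of 19.4%. TfIIA-S and TfIIA-L encode the small and large precursor subunits of TFIIA and lie at separate loci. TfIIA-S had a signal of 170.2 (rank 703), with 71.93 (rank 754) in replicate 2 and 96.70 (rank 740) in replicate 3, and TfIIA-L had 157.6 (rank 831), with 67.52 (rank 866) in replicate 2 and 86.93 (rank 909) in replicate 3. TfIIB, which positions the polymerase on the start site, had 129.2 (rank 1198), with 70.25 (rank 793) in replicate 2 and 60.59 (rank 1725) in replicate 3. The peaks of both TFIIA subunits kept close ranks in the replicates, while that of TfIIB ranked higher in replicate 2. The other TfII genes were unbound. TfIIS, an elongation factor gene, ranked 5238, TfIIFalpha 5747, TfIIEalpha 8143 and TfIIFbeta 27271, while TfIIEbeta had no pooled peak, nor did TfIIA-S-2, the paralog of TfIIA-S. Counts this small do not set the factors apart.

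TAF genes had 3 of 15 bound (20%, 4.33 to 48.1), a share next to the background. Taf4, a core TFIID subunit, had a signal of 193.3 (rank 562), with 86.52 (rank 503) in replicate 2 and 107.9 (rank 590) in replicate 3. Taf7, which binds Taf1, had 88.52 (rank 2304), with rank 1661 in replicate 2 and rank 3892 in replicate 3. Taf1, the largest TFIID subunit, had 75.96 (rank 2960), with rank 2108 in replicate 2 and rank 4303 in replicate 3. Taf4 was high in both replicates, whereas Taf7 and Taf1 were near the end of the thresholded list and past it in replicate 3. The count for this class moved with the replicate. It was 4 (26.7%, against 19.7% of all protein-coding genes) by the strongest peaks of replicate 2. By those of replicate 3 it was 1 (6.67% against 18.9%).

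**Figure D2:**
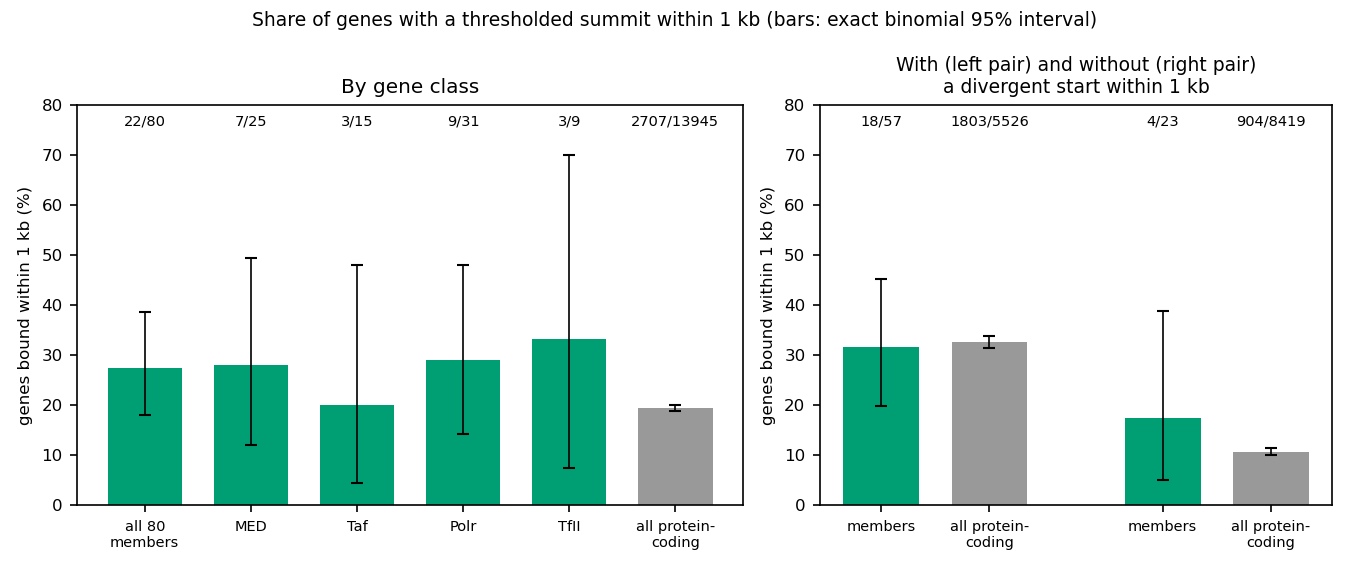
Share of genes (%) with a thresholded summit within 1 kb of a start site, by gene class (left) and split by the presence of an opposite-strand start site within 1 kb upstream (right), with the members in green and all protein-coding genes in grey; counts stand above the bars and error bars are exact binomial 95% intervals. The 22 of 80 members compare with 19.4% of all genes, and 18 of 57 members with a divergent start compare with 32.6% of all such genes.

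The median signal at the bound members was 150.5, against 119.2 at all 2707 bound protein-coding genes, a ratio of 1.26. Genes were counted here, and the 2707 lie on 1846 distinct peaks, so shared peaks count more than once among them. With only the stronger 1602 thresholded peaks the ratio was 1.03. Member signals ran from 75.96 to 357.2, and those of all bound genes, the members among them, from 72.30 to 1624. Class medians were 201.3 for Mediator, 88.52 for TAF, 126.7 for polymerase and 157.6 for TfII genes. With only the stronger 1602 thresholded peaks, 15 members were bound (18.8%) against 11.1% of all protein-coding genes. By the strongest 3205 peaks of a single replicate, the members' share was 26.2% (21 genes) against 19.7% in replicate 2 and 23.8% (19 genes) against 18.9% in replicate 3. Within 500 bp of a start, 26.2% of members (21 genes) were bound against 16.9% of all. In each of these counts the share of the members was above that of all genes, and the counts draw on overlapping sets of peaks.

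**Figure D3:**
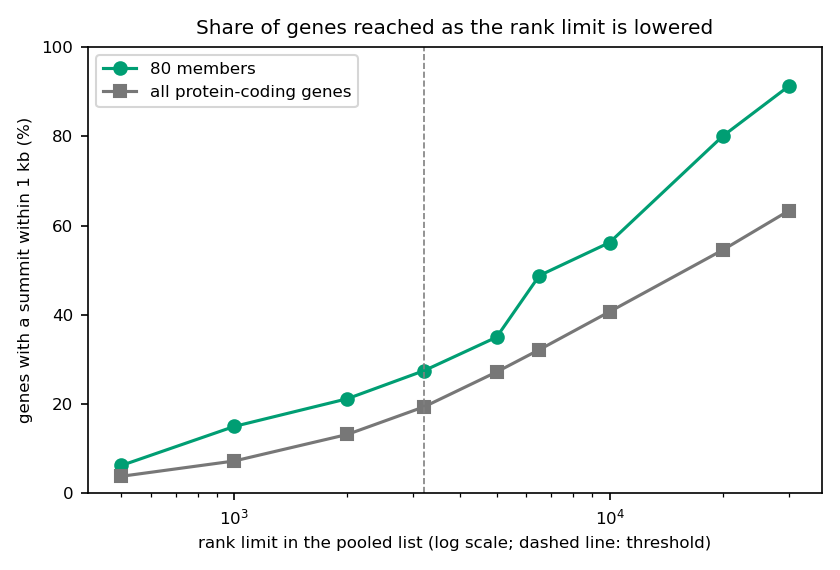
Share of genes (%) with a pooled summit within 1 kb of a start site as the lowest rank allowed grows (log scale), for the 80 members (circles) and all 13945 protein-coding genes (squares); the dashed line is the threshold at rank 3205. The members lie above all genes at each of the 9 ranks plotted, with 91.2% against 63.3% at rank 30000.

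Ranks in the pooled list describe the genes on both sides of the threshold. A pooled peak of any rank lay within 1 kb of 73 members (91.2%) and of 8833 protein-coding genes (63.3%); the pooled list ends at 30000 peaks, so a low rank in it need not be a binding site. Among genes with such a peak the median best rank was 6188 for members and 6322 for all, so these medians lay close together. They leave out the genes without a pooled peak, 7 of the 80 members but 5112 of the 13945 protein-coding genes. Of the members, 5 were within rank 500 (6.25% against 3.83% of all genes), 12 within rank 1000 (15% against 7.26%) and 39 within rank 6500 (48.8% against 32.2%). Just inside the threshold were Polr2E (2908) and Taf1 (2960), and just outside were Taf2 (3222), MED16 (3836), Polr3D (4464), Taf3 (4498) and Taf5 (4813). Taf2, which with Taf1 contacts the start site, missed the threshold with a signal of 72.06 and ranked 2154 in replicate 2 and 5165 in replicate 3. MED1, the target of nuclear receptors in mammals, ranked 5255 (3465 in replicate 2 and 9666 in replicate 3), and MED14 ranked 6525 (13609 in replicate 2 and 6483 in replicate 3).

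The weakest members with a pooled peak were Polr2L (23195), Taf11 (23280), Polr3B (26550), Polr1B (26780) and TfIIFbeta (27271). The 7 members without one were MED18, Polr1A, Polr2M, Polr3A, Taf12L, TfIIA-S-2 and TfIIEbeta. Taf10 and Taf10b, paralogous TAF genes, start 45 bp apart on opposite strands and share 1 pooled peak of rank 12041, and Taf12 ranked 11342 while its paralog Taf12L had none. Genes of the same class thus ran from rank 141 to no pooled peak in Mediator, where MED18 had a peak of rank 23795 in replicate 3 alone. The TAF genes ran from rank 562 to rank 23280 (Taf11), with no pooled peak at the paralog Taf12L.

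The bound members were chosen through a threshold on reproducibility, so a match of their peaks in both replicates was largely set beforehand. All 22 member peaks had a summit within 150 bp in each replicate, against 1824 of the 1846 thresholded peaks at protein-coding start sites. Both replicates placed 17 of the 22 (77.3%) among their strongest 3205 peaks, against 76.5% of the 1846. The 2 replicate ranks were within 2-fold of each other for 16 peaks (72.7%) against 78.4%, and the median ratio of the ranks was 1.473 against 1.434. Replicate 2 ranked the peak higher for 16 members and replicate 3 for 6, against 969 and 844 of the peaks at all protein-coding start sites. Counted by genes rather than matched peaks, 17 members (21.2%) were bound in the strongest peaks of both replicates, against 15.6% of all protein-coding genes. MED31, Taf1, Taf2 and Taf7 had a summit among the strongest 3205 peaks of replicate 2 but not of replicate 3, and MED7 and Polr2E among those of replicate 3 but not of replicate 2.

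Most members stand back to back with a neighbouring gene. An opposite-strand start site lay within 1 kb upstream of a start site at 57 of the 80 members (71.2%), against 39.6% of all protein-coding genes (5526 of 13945). With a divergent start, 18 of 57 members were bound (31.6%, 19.9 to 45.2) against 32.6% of all genes so arranged. Without one, 4 of 23 members were bound (17.4%, 4.95 to 38.8) against 10.7% of all such genes. Within the divergent class the share of the members was next to the background, and the part of this arrangement in the higher share over all members was not tested.

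**Figure D4:**
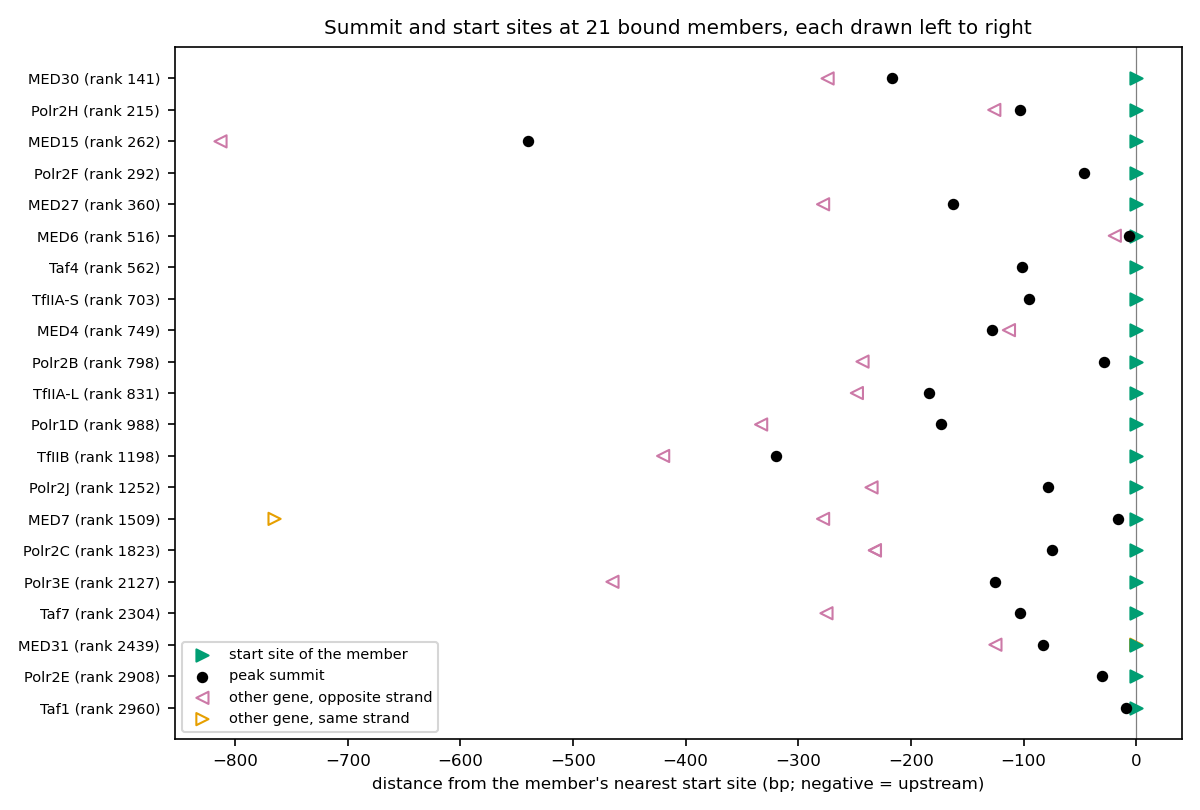
Position of the thresholded summit (black circle) and of start sites of other genes within 1 kb of that summit (open triangles, pointing in the direction of transcription), in bp from the nearest start site of each of 21 bound members, strongest peak at the top. Each member is drawn left to right; all 21 summits lie upstream, from 6 to 540 bp, and most have an opposite-strand start on their other side.

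Summits sat just upstream of the start, often between it and that of a divergent neighbour. All 22 member summits were on the upstream side of the nearest annotated start (100%), against 84.9% over all bound protein-coding genes. The median position was -102 bp against -119 bp. The summits of MED6, Taf4, Taf7, TfIIA-L and Polr1D lay inside the gene, downstream of its most 5′ start. Within 200 bp of the start were 19 (86.4%) against 61.3%. A start site of another gene lay within 1 kb of the summit at 17 members (77.3%) against 66.8%, and the member had the nearest start site for 12 (54.5%) against 67.2%. No member had more than 1 thresholded summit within 1 kb, against 338 of all bound genes (12.5%). A summit in a shared promoter cannot be assigned to either gene from these lists.

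For the strongest peak, the summit lay 217 bp before MED30 and 57 bp before Rev1, a translesion DNA polymerase gene on the opposite strand. At Polr2H the summit was 103 bp away, and the start of CG11247 lay 23 bp from it on the other side. The summit near MED27 was 163 bp away, and elm started nearer to it on the other side. MED15 had the most distant summit, at 540 bp, and CG4297 on the opposite strand was nearer at 273 bp. At these 4 peaks the neighbour's start was the nearer.

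The summit of MED6 lay 6 bp from its start and 13 bp from that of Naa80, an actin acetyltransferase gene, with 19 bp between the starts. That of TfIIA-L lay 184 bp from an internal start and 64 bp from pll, the kinase of the Toll pathway. That of Polr1D lay 173 bp from an internal start and 160 bp from brat, a translational repressor. The intronic summits were those of Taf4, Taf7, TfIIA-L and Polr1D. With only the most 5′ start site of each gene, MED6, TfIIA-L and Polr1D were no longer bound and 19 members (23.8%) remained, against 17.8% of all protein-coding genes.

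Other bound members shared a summit with a gene on the opposite strand: TfIIB and Bug22 (summit 320 bp and 100 bp away), Polr2B and 140up (29 bp and 214 bp), Polr2J and CG15141 (78 bp and 157 bp), and MED7 and the condensin gene Cap-H2 (16 bp and 262 bp). Polr2C lay 75 bp from its summit and shared it with PolG2 and GatC, both at 157 bp and annotated from the same start. Polr3E and CG10584 lay 125 bp and 340 bp away, Taf7 and EMC1 103 bp and 172 bp. MED31 shared its start site with slx1 on the same strand, and CG9775 started on the opposite strand. MED4 shared its summit with a noncoding RNA, asRNA:CR43470, whose start was 15 bp away against 128 bp for MED4.

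No other start site lay within 1 kb of the summit at Polr2F (46 bp from its start), Taf4 (101 bp), TfIIA-S (95 bp), Polr2E (30 bp) and Taf1 (9 bp). At these 5 peaks the start sites of the member were the only annotated ones in reach. Their signals were 260.2, 193.3, 170.2, 76.73 and 75.96 in that order, so they covered both ends of the range.

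Sequence words were counted within 100 bp of each summit, on both strands, for a panel of 13 motifs. The 22 member peaks were set against the 1846 thresholded peaks at protein-coding start sites, and a match describes letters, not a bound site. TGACNNNGC, a relaxed form of the Cnc-Maf site, occurred at 1 member peak, TfIIA-S, where TGACATTGC lies on the summit, 95 bp before the start (4.55% against 6.23%). TGCTGA occurred at 2 (9.09% against 10%), 48 bp downstream of the summit at Polr2H and 33 bp downstream at Polr2F. ATCGAT, the core of the DNA replication-related element (DRE) of fly core promoters, occurred at MED27 and Polr2C (9.09% against 20%), and the whole DRE, TATCGATA, at none (0 of 22, which allows up to 13.6% with 3 counts taken as the limit, against 9.10%). Counts this small do not set the member peaks apart, and the direction changed with the window: TGACNNNGC stood at 1 peak against 3.20% within 50 bp and at 3 against 8.50% within 150 bp, and TGCTGA at 4 against 14.9% within 150 bp.

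The E-box CAGCTG occurred at 3 peaks, those of MED30 and Polr3E among them (13.6% against 13.4%); at MED30 it lies within Rev1 and so outside the stretch printed above. TATAAA occurred at 6 peaks, those of MED27, Polr1D, Polr2C, Polr2E, Polr2H and Polr2J (27.3% against 29.1%). GGTCACAC, known as motif 1 of fly core promoters, occurred at Taf1 alone (4.55% against 5.85%), 18 bp into its 5′ UTR. In all, 7 of the 13 words were not found in these windows at member peaks: the DRE, the E-box CACGTG, the AP-1 word TGANTCA, the cAMP response element TGACGTCA, the word TTGCGCAA bound by C/EBP proteins, the Zelda word CAGGTA and the GAGA factor word GAGAGAG. The member windows had a median GC content of 35.8% (27.4 to 47.3) against 37.3% (22.4 to 64.2). ATCGAT lies inside TATCGATA, so those counts overlap.

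Other genes of the transcription machinery were taken from a list of 80 symbols, of which 76 matched the annotation. The symbols without a match were rye, listed with the testis TAFs, and IntS5, IntS7 and IntS13 of Integrator. Of the 76 matched genes, 27 were bound (35.5%), against the background of 19.4%, and Ssl1 and Bdp1 had stronger peaks than any member. No interval was computed for this list. Most of the 27 shared their summit with another gene, as Bdp1 did with CG6565 and Brf with sds22. The exceptions were Ada2b, CycH, dre4, IntS4 and the gene named not. At Ada2b and not the summit lay 652 and 899 bp downstream of the start. TFIIH, the factor that opens promoter DNA, had 4 of 10 genes bound (40%). Ssl1 had a signal of 1211 (rank 6), in a peak shared with the divergent gene Chro, followed by Tfb5 (rank 2154), Tfb4 (2189) and CycH (2565). Bdp1 and Brf, partners of the TBP family at polymerase III genes, were high as well, at 476.4 (rank 77) and 350.3 (rank 144). Of the 5 TBP family genes and partners, those 2 were the bound ones (40%). The best pooled ranks of Tbp, Trf and Trf2 were 14879, 17466 and 7987.

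SAGA, a coactivator complex that shares TAFs with TFIID, had 6 of 13 genes bound (46.2%, against the background of 19.4%). They were Gcn5 (rank 618), Ada2b (1123), not (1657), Ada3 (1662), Sgf29 (1855) and Spt7 (3002). Genes of promoter pausing and elongation had 8 of 20 bound (40%). Nelf-E was the strongest at 297.1 (rank 199), in a peak shared with RpL14, then lilli (1423), Nelf-A (1448), Ctr9 (1751), Rtf1 (1959), hyx (2335), Spt6 (2535) and dre4 (2657). Integrator, which cleaves nascent RNA, had 5 of its 11 matched genes bound (45.5%). They were IntS6 (rank 373), IntS9 (556), IntS10 (685), IntS11 (1706) and IntS4 (3190). Of the Mediator kinase module only skd (rank 975) of 4 genes was bound (25%). Of a mixed group of 7 polymerase I, III and mitochondrial factors only Pbp95 (2872) was bound (14.3%). The 4 matched testis TAF genes and the 2 genes of C-terminal domain phosphatases were unbound. With no interval for groups this small, none was set apart from the background of 19.4%.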

How the data were processed

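Peak lists on dm6 were used: 1 for each replicate, 1 for the pooled replicates, and the list that passed the optimal threshold of the irreproducible discovery rate (IDR) step, per the labels. Each list gives a signal value per peak and a summit, as deposited by the authors; the thresholded list holds the same peaks as the top 3205 of the pooled list by signal. No aligner, peak caller, IDR threshold, depth or read filter is given in the sources used here. The scale of the signal was not taken as equal between lists, so replicates were compared by rank. The dm3 lists were not used.

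Genes and start sites came from Ensembl release 115 and sequence from the RefSeq copy of Release 6. Transposable elements were left out, leaving 18164 genes on the arms. The matching and motif search were tested on simulated data. Python 3.11.15, numpy 2.4.6, scipy 1.17.1 and matplotlib 3.10.9 were used. With 1 group there is no contrast between conditions, and counts are descriptions with no test. Genes named are every bound member but 1, which is counted but not reported here, the 5 nearest to the threshold outside it, the 5 weakest and those with no pooled peak, Polr2A, Taf1, TfIIB, MED1, MED14 and every bound gene of the pathway list; others were chosen after their values were seen. The members and lists were chosen with earlier results of these data known. Alternatives varied the distance to a start, the threshold, the replicates, the start sites, the summit match and the motif window.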

Additional observations from a re-analysis of the deposited data

How the results depend on the processing

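The count of bound members kept within 1.5 times of 22 under every alternative run except the widest distance: within 5 kb, 46 members, 14 Mediator, 10 TAF, 17 polymerase and 5 TfII genes and 41 pathway genes had a summit, which is 57.5% of the members against 36.1% of all protein-coding genes. Within 2 kb the TAF count was 6 (40%), against 23.6% of all protein-coding genes. With the stronger 1602 peaks alone the TAF count was 1 (6.67%), the polymerase count 5 (16.1%) and the pathway count 12 (15.8%). The share of all protein-coding genes under that rule was 11.1%. Leaving out replicate 2 gave 19 members (23.8%, background 18.9%), and leaving out replicate 3 gave 21 (26.2%, background 19.7%). Across these runs the counts were 6 Mediator, 1 to 4 TAF, 8 to 9 polymerase, 3 TfII and 27 pathway genes. The ratio of the median signal at members to that at all bound genes, 1.26, was 1.19 within 2 kb, 1.18 within 5 kb, 1.03 with the stronger 1602 peaks, 1.10 with the most 5′ start sites only and 1.28 to 1.37 without a replicate. The median best rank was 5729 within 500 bp, 5554.5 within 2 kb and 6430 to 6742 in single replicates. The whole DRE was found at 2 member peaks in a window of 150 bp, against 11.3% of the peaks at protein-coding start sites. The cause of these shifts was not tested. No paired analysis was possible because there is 1 group. Peaks with low signal are limited by a depth that is not known here.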

Other observations

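The same words were counted in windows of 100 bp either side of the start sites of bound and unbound members. Around the summits of the 22 member peaks, the DRE was at 0 and motif 1 at 1. The DRE TATCGATA occurred at the start sites of 1 of the 22 bound members (4.55%) and of 11 of the 58 unbound members (19%), against 8.49% of all protein-coding genes. The unbound genes with it were MED8, MED17, MED18, MED25, MED26, MED28, Polr2D, Polr2L, Polr3A, Polr3B and Taf3. Motif 1, GGTCACAC, occurred in both sets, at 5 bound members (22.7%) and 15 unbound members (25.9%), against 7.56% of all genes.

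CACGTG, the E-box of Myc and related factors, occurred at 0 of 22 bound members (which allows up to 13.6% with 3 counts taken as the limit, and up to 15.4% by the exact binomial 95% interval) and at 8 unbound members (13.8%), against 3.69% of all genes. Of those 8, most were polymerase I genes or the mitochondrial enzyme: Polr1A, Polr1B, Polr1C, Polr1E, Polr1H and PolrMT, with MED26 and Polr3A. TGCTGA was the other way round, at 6 bound members (27.3%) and 3 unbound members (5.17%), against 14.3% of all genes. Within 100 bp of the summits, however, it was at 2 of the 22 member peaks (9.09%), against 10% of the peaks at protein-coding start sites. The comparison of start sites was chosen after the values were seen, genes with more start sites have more windows, and the differences were not tested.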
